A study of Mus musculus with 2 samples.

Results

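Transcripts of 8 interferon regulatory factors, Irf1, Irf2, Irf3, Irf4, Irf5, Irf7, Irf8 and Irf9, were counted in CD45+ leukocytes from the brain of twi and WT mice at p21. The members were chosen by symbol, and all 8 were found among the 27998 genes of the count tables. The twi mice (galc-/-) lack galactosylceramidase, the lysosomal enzyme that breaks down galactosylceramide, in every cell, and the WT mice were galc+/+ littermates. Both genotypes were on the C57Bl/6 strain (C57BL/6J in the study's methods) and untreated. CD45+ cells of several animals were pooled for each genotype and read by the 10x Genomics assay (3′ v2), which tags each captured transcript with a unique molecular identifier (UMI). There was therefore 1 library per genotype, no replicate error and no test, and every interval below is a 95% interval that covers counting error only. Sex of the animals was not given in the labels. Xist without a Y-linked UMI was seen in 0 of the 1271 WT cells kept (a count of 0 allows up to 0.236%) and in 45.4% of twi cells, so that over whole classes genotype and the share of Xist-expressing cells cannot be told apart. Galc, the mutated gene, had 4 UMIs in WT and 8 in twi, and a 3′ count of this kind does not check a mutation.

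IRFs bind repeats of the letters GAAA in the control regions of interferon and interferon-stimulated genes. IRF3 is made in most cells and is switched on by phosphorylation downstream of nucleic acid sensors, whereas IRF7 is itself an interferon-stimulated gene that carries interferon production further. IRF9 joins STAT2 in the complex that reads type I interferon signals, IRF1 is induced by IFN-gamma, IRF2 competes with IRF1 for the same sites, IRF5 acts downstream of Toll-like receptors, and IRF4 and IRF8 pair with the ETS factors PU.1 and SPI-B to set lymphoid and myeloid identity. In brain, IRF8 is known as a factor of microglia.

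After barcodes with more than 15% mitochondrial UMIs were removed, 1271 WT cells (3741477 UMIs, median 2222 per cell) and 1207 twi cells (4791200 UMIs, median 3182) were left, and the libraries shared 0 barcodes. Cells were put into classes by the marker panel of which most genes were detected. Of the genes in these panels, Cd79a, part of the B cell receptor, was detected in 99.3% of WT and 98.8% of twi B cells. Ncr1 was detected in 95.4% and 93.0% of NK cells, and P2ry12 in 90.0% and 72.2% of microglia. These genes helped to set the classes, so their detection is no separate check of them. CD8+ T cells made up 8.26% of WT cells (105 cells) and 34.3% of twi cells (414 cells), and B cells made up 44.3% (563 cells) and 14.2% (172 cells). There were 47 WT and 68 twi CD4+ T cells, 86 and 71 NK cells, 230 and 67 neutrophils, and 42 and 65 monocytes. Microglia (30 and 18 cells) and IL-17-type γδ T cells (8 and 29 cells) had under 20 cells in a library, so that only their levels are given. Levels are UMIs of a gene per 1000000 UMIs of the class (CPM). S100a8, a neutrophil transcript, was detected in 68.7% of WT and 34.3% of twi B cells, and the part of such free RNA in the values below was not tested.

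In the 6 classes with at least 20 cells in each library, 34 of the 48 pairs of a member and a class held at least 20 UMIs over both libraries. Of these, 10 were at least 1.5-fold higher in twi, 3 were at least 1.5-fold lower and 21 lay between. Irf7 had at least 20 UMIs in 5 classes and was past 1.5-fold higher in twi in each of them. Irf4 had enough UMIs in B cells alone, where it was past 1.5-fold lower. Irf8 was past 1.5-fold lower in NK cells and monocytes and higher in CD8+ T cells, and the other 5 members were within the fold in most of their classes.

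Read class by class, the numbers stood against different backgrounds. In CD8+ T cells 3 of 6 members (Irf1, Irf7 and Irf8) were past 1.5-fold higher in twi and 0 lower, where 22% of 7481 genes were that much higher and 9.29% lower. In CD4+ T cells 1 of 3 members (Irf2) was past the fold upwards and 0 downwards, beside 15% and 10.7% of all genes. In NK cells 1 of 6 members was higher (Irf7) and 1 lower (Irf8), beside 10.6% and 14.2%. In B cells 1 of 8 was higher (Irf7) and 1 lower (Irf4), beside 7.99% and 13.5%. In neutrophils 2 of 4 were higher (Irf1 and Irf7) and 0 lower, beside 12.8% and 14.7%. In monocytes 2 of 7 were higher (Irf2 and Irf7) and 1 lower (Irf8), beside 12.7% and 25.6%. The median log2 ratio of the members with enough UMIs was 0.56 in CD8+ T cells, where that of all genes was 0.13. It was -0.08 in NK cells, where that of all genes was -0.04, and 0.38 in monocytes, where that of all genes was -0.15.

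**Figure D1:**
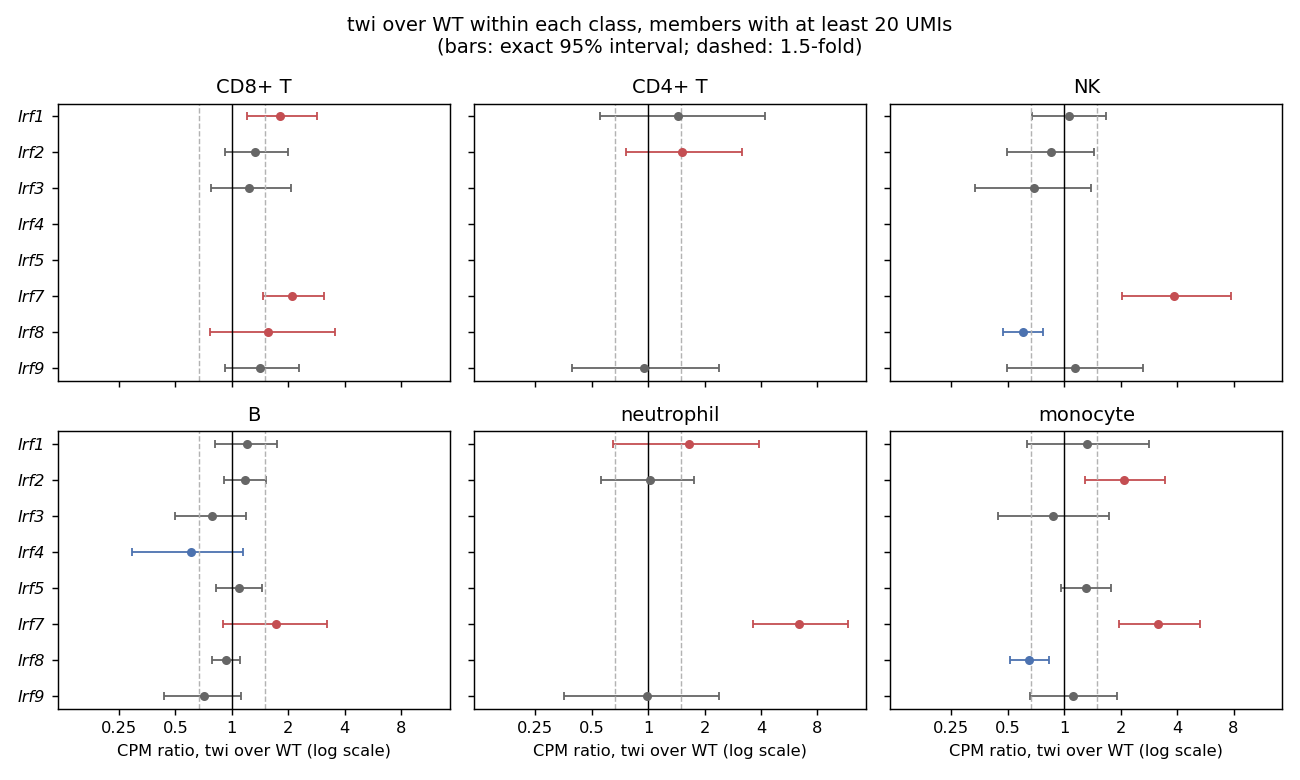
Ratio of CPM in the twi library over the WT library (x axis, log scale) for each member with at least 20 UMIs in each of 6 classes. Points are ratios and bars exact 95% intervals that cover counting error only. Red points are at least 1.5-fold higher and blue points at least 1.5-fold lower, and Irf7 lies right of the dashed 1.5-fold line in all 5 classes where it is drawn.

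Irf7, the interferon-inducible member, is shown first because it differed most widely. The gene lies on the minus strand of chr7:141262706-141266481 (GENCODE M21, mm10), and its RefSeq promoter window of 250 bases before to 50 bases after the start site is chr7:141266375-141266674. Windows of this size were searched on both strands for the spaced repeat that IRFs bind, 2 copies of GAAA with any 2 bases between them, and for TTCNNNGAA, the palindrome that STAT dimers bind. The repeat was found in 3.44% of 32851 RefSeq promoter windows and the palindrome in 8.3%. The window of Irf7 is printed as the member with the widest difference, in lower case throughout because it held neither set of letters:
Irf7: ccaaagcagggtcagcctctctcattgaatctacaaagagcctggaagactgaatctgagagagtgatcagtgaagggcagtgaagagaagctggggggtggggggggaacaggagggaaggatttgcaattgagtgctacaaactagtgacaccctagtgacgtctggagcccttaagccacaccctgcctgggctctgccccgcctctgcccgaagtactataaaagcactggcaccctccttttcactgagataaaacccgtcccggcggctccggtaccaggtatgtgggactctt

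Over all filtered cells Irf7 stood at 37.4 CPM in WT (140 UMIs, 31.5 to 44.2) and 155 CPM in twi (743 UMIs, 144 to 167), a ratio of 4.14 (3.46 to 5.0). CD8+ T cells held 23.6% of its WT UMIs and 42.1% of its twi UMIs. A UMI of Irf7 was seen in 8.97% of WT and 32.7% of twi cells, and in 3.55% and 13.3% when every cell was thinned to 1000 UMIs.

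In CD8+ T cells, Irf7 was at 75.8 CPM in WT (33 UMIs in 105 cells, 52.2 to 106) and at 159 CPM in twi (313 UMIs in 414 cells, 142 to 178). The twi level was 2.1-fold that of WT (1.46 to 3.10), and the intervals of the levels did not overlap. A UMI was found in 21.9% of WT and 39.1% of twi CD8+ T cells, and in 7.12% and 15.1% after thinning to 1000 UMIs. No class is known to lack Irf7, so that no background share could be set beside these. Among cells with a Y-linked and no Xist UMI (45 WT and 58 twi cells), the ratio was 1.40 (0.788 to 2.55).

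In NK cells, Irf7 was at 47.5 CPM in WT (13 UMIs, 25.3 to 81.3) and 182 CPM in twi (47 UMIs, 134 to 242), a ratio of 3.83 (2.04 to 7.72). In monocytes it was at 64.6 CPM in WT (23 UMIs, 41.0 to 96.9) and 204 CPM in twi (79 UMIs, 162 to 255), a ratio of 3.16 (1.97 to 5.28). Both ratios stayed above 1 over their whole interval. WT monocytes were deeper (medians of 6179.5 UMIs in WT and 5193 in twi). As UMIs per cell, Irf7 in monocytes was at 0.548 in WT and 1.22 in twi. Over 11 alternative settings, that count among them, the monocyte ratio ran from 2.21 to 3.82. The Y-linked comparison could not be made in these classes, which had 18 and 15 such cells in twi.

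In neutrophils, Irf7 was at 27.6 CPM in WT (19 UMIs, 16.6 to 43.1) and 177 CPM in twi (39 UMIs, 126 to 242), a ratio of 6.40 (3.61 to 11.7). This value rested on few cells. Of the 39 twi UMIs, 25 (64.1%) lay in 3 cells with 12, 9 and 4 UMIs. As an alternative, cells were classed by the most marker UMIs in place of the most detected markers, with S100a8 and S100a9 left out of the sums. By that rule none of the 3 was a neutrophil, and the ratio was 2.51 (1.17 to 5.29). Whether the 3 cells would be neutrophils with S100a8 and S100a9 in the sums was not tested. By the immature gate (at least 2 of Ltf, Camp, Ngp and Chil3, genes of granule proteins made early in neutrophil development), the ratio was 5.58 (2.73 to 11.8) in immature and 5.59 (1.98 to 19.4) in other neutrophils. In twi these rested on 22 UMIs in 9 immature cells and 17 UMIs in 5 other cells. The 3 cells above are among them, so the gates are no separate check of the ratio.

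B cells had the lowest Irf7 level of the 8 classes in twi, 40.5 CPM (18 UMIs, 24.0 to 64.0), against 23.6 CPM in WT (29 UMIs, 15.8 to 33.8), and the interval of the ratio, 1.72 (0.90 to 3.21), held 1. In CD4+ T cells the WT library held 2 UMIs and the twi library 17, for a ratio of 5.76 (1.37 to 51.4) that rested on too few UMIs to be counted above. T cells with neither Cd4 nor Cd8 UMIs nor γδ genes, or with both, were at 47.5 CPM in WT (12 UMIs) and 193 CPM in twi (132 UMIs). Microglia held 3 Irf7 UMIs in WT (28.1 CPM, 5.79 to 82.1) and 20 in twi (169 CPM, 103 to 261), of which 9 lay in 1 cell.

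The order of classes by Irf7 level also differed between the libraries. In WT it ran from CD8+ T cells (75.8 CPM) and monocytes through NK cells, γδ T cells, microglia, neutrophils and B cells to CD4+ T cells (12.4 CPM). In twi it ran from monocytes (204 CPM) through NK cells, neutrophils, microglia, CD8+ T, γδ T and CD4+ T cells to B cells (40.5 CPM). In neither library did any class differ from its neighbour in the order beyond the interval of their ratio.

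CD8+ T cells that carried Ccr7 without Cxcr6 held less Irf7 than the cells with neither or both, in both libraries. The Ccr7 gate (Ccr7, which guides cells to lymph nodes, without the tissue-homing receptor Cxcr6) held 48 WT cells (45.7% of the class) and 64 twi cells (15.5%). There Irf7 was at 32.0 CPM in WT (6 UMIs, 11.8 to 69.7) and 42.3 CPM in twi (12 UMIs, 21.9 to 73.9). The ratio of 1.32 (0.459 to 4.29) rested on fewer than 20 UMIs, and its interval held 1. The 51 WT cells (48.6%) and 114 twi cells (27.5%) outside both gates held most of the WT UMIs, 27 of 33, at 130 CPM (85.9 to 190), against 94 UMIs and 171 CPM (138 to 209) in twi. Their ratio was 1.31 (0.846 to 2.09), and their level over that of the Ccr7 gate was 4.07-fold in WT (1.65 to 12.1) and 4.03-fold in twi (2.20 to 8.08). The Cxcr6 gate (Cxcr6 without Ccr7) held 236 twi cells (57.0%), in which Irf7 was at 183 CPM (207 UMIs, 159 to 210), 4.32-fold the Ccr7 gate (2.42 to 8.5) and 1.07-fold the cells outside both gates (0.836 to 1.38). In WT it held 6 cells (5.71%) and 0 Irf7 UMIs, and the interval of the ratio between the libraries, which counts UMIs, began at 2.01. Counted by cells, a UMI was seen in 43.6% of the twi cells (103 cells). The interval of 0 of 6 WT cells reached 45.9%, so that by share of cells the libraries were not apart in this gate. The interval of the Ccr7 gate held both 1 and the 2.1 of the class, and that of the cells outside both gates held 1 and reached 2.09. The shares of the gates differed between the libraries, and their part in the ratio of the class was not tested.

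**Figure D2:**
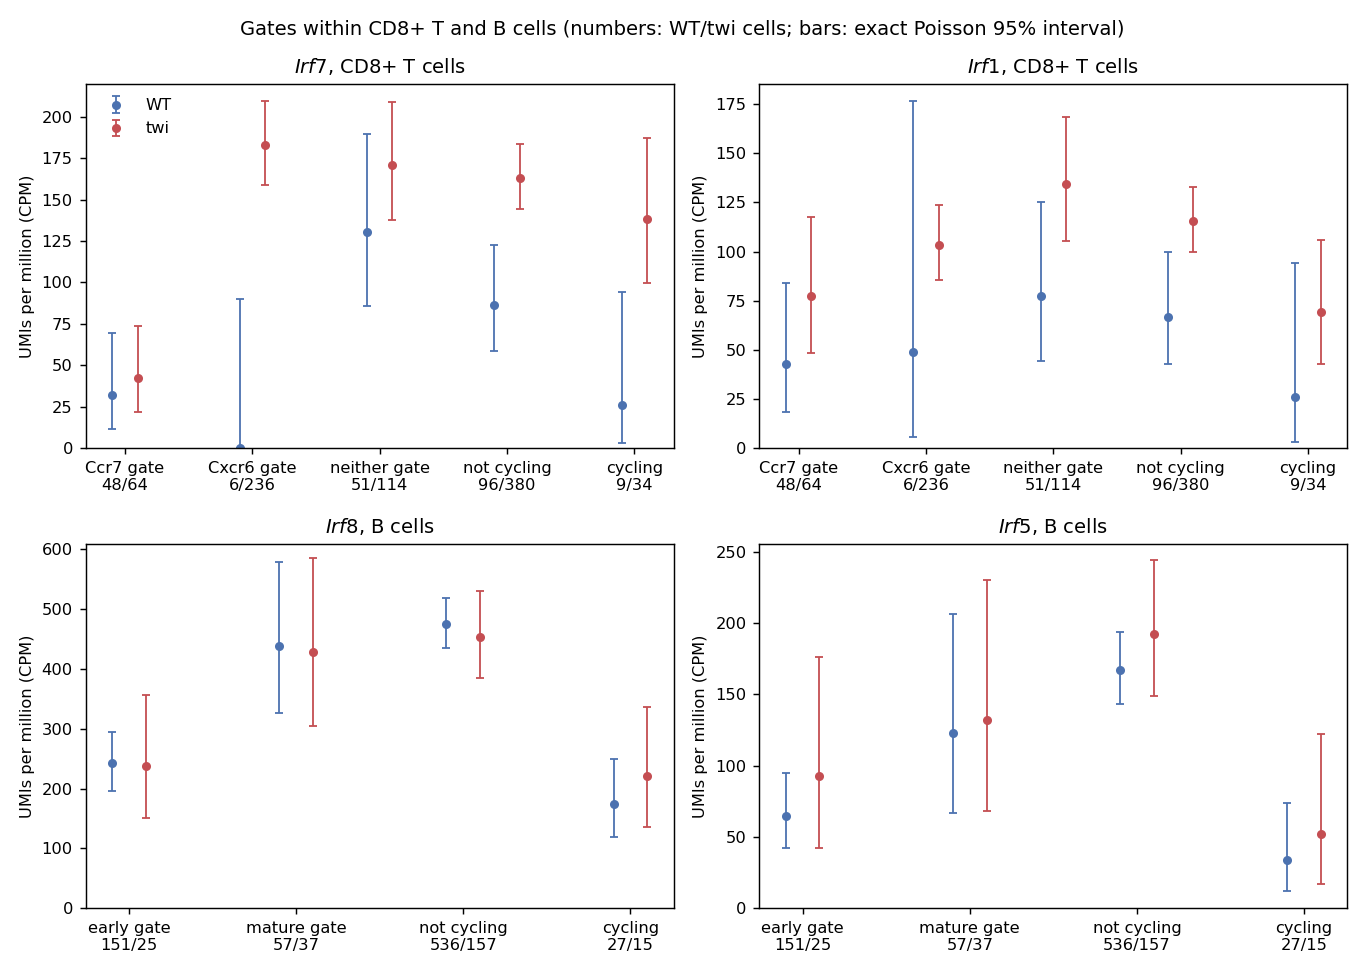
CPM of Irf7 and Irf1 in gates of CD8+ T cells and of Irf8 and Irf5 in gates of B cells (y axes start at 0). Points are the WT and twi libraries, bars exact Poisson 95% intervals, and the numbers under each gate the WT and twi cells. In twi, Irf7 was at 42.3 CPM in the Ccr7 gate, 183 CPM in the Cxcr6 gate and 171 CPM in the cells outside both, and Irf8 and Irf5 were lower in cycling than in other B cells in both libraries.

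Cells with an Irf7 UMI also held more transcripts of 8 type I interferon target genes (Isg15, Ifit1, Ifit3, Mx1, Oasl2, Rsad2, Usp18 and Bst2). In WT CD8+ T cells their sum was 1349 CPM in 23 cells with and 188 CPM in 82 cells without an Irf7 UMI, a ratio of 7.19 (5.29 to 9.85). In twi CD8+ T cells it was 2203 CPM in 162 and 634 CPM in 252 cells, a ratio of 3.47 (3.18 to 3.79). The twi cells without an Irf7 UMI were thus at 634 CPM, between the WT cells without and with one. In NK cells the ratio was 1.34 (0.491 to 3.17) in WT and 10.8 (6.82 to 17.9) in twi, and in monocytes 2.77 (1.74 to 4.46) and 1.65 (1.28 to 2.14). Cells with an Irf7 UMI were mostly deeper, with medians of 4529 against 3929 UMIs in twi CD8+ T cells and 6516 against 3375 in twi monocytes, and CPM does not fully remove that. These are descriptions over cells of 1 library.

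**Figure D3:**
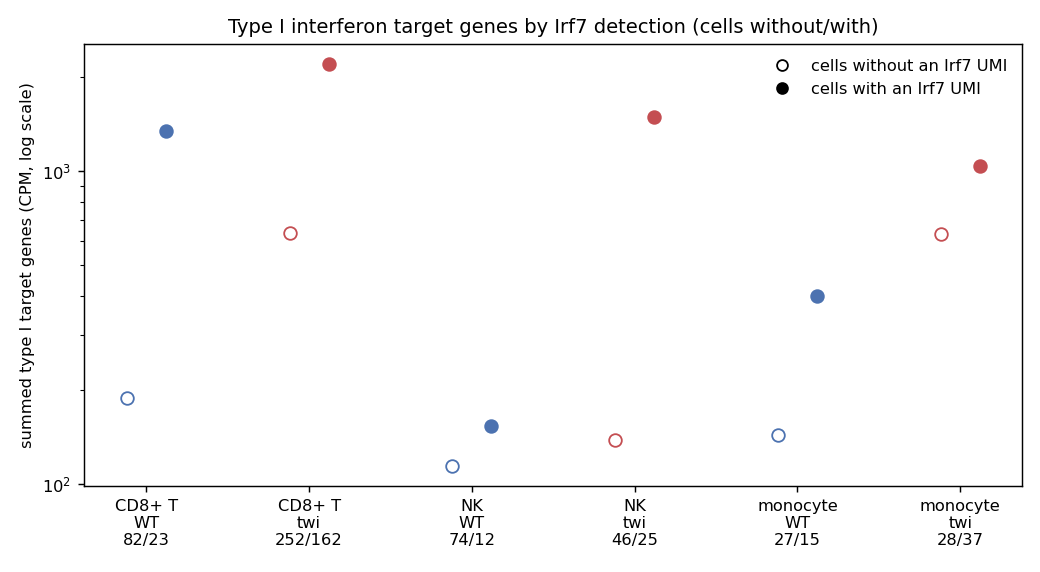
Summed CPM of the 8 type I target genes (y axis, log scale) in cells without (open) and with (filled) an Irf7 UMI, for CD8+ T cells, NK cells and monocytes of the WT (blue) and twi (red) libraries, with the numbers of cells below. The filled point lies above the open one in each of the 6 pairs, from 1.34-fold in WT NK cells to 10.8-fold in twi NK cells.

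The same list compared between the libraries was higher in most classes. In CD8+ T cells 7 of 8 genes were past 1.5-fold higher in twi and 1 lower (Oasl2, 8 and 23 UMIs), with a median log2 ratio of 1.51 where all genes had 0.13. Here and in the lists below, the shares of all genes past the fold are those given for the members, upwards 22% in CD8+ T cells, 15% in CD4+ T cells, 10.6% in NK cells, 7.99% in B cells, 12.8% in neutrophils and 12.7% in monocytes. Isg15, a ubiquitin-like modifier, was at 142 CPM in WT and 398 CPM in twi CD8+ T cells (ratio 2.79, 2.15 to 3.68), and Ifit3 at 45.9 and 192 CPM (ratio 4.18, 2.67 to 6.93). In monocytes all 6 genes with enough UMIs were past the fold upwards (median log2 ratio 2.61 against -0.15 for all genes, with Ifit3, at 0 UMIs in WT, set to 3 UMIs). All 4 were so in NK cells (median 2.59) and in CD4+ T cells (median 1.06), and 4 of 5 in neutrophils (median 1.57). In B cells 1 of 3 was (Ifit3, 12 and 10 UMIs), with a median of -0.01. B cells were thus also the class in which the median of these targets lay nearest to that of all genes (-0.03).

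IRF9 was read out by Irf9, on the plus strand of chr14:55603571-55610030. Over all cells it was at 59.1 CPM in WT (221 UMIs) and 74.5 CPM in twi (357 UMIs), a ratio of 1.26 (1.06 to 1.5), but none of the 6 compared classes was past 1.5-fold. In CD8+ T cells it was at 55.1 CPM in WT (24 UMIs, 35.3 to 82.0) and 77.8 CPM in twi (153 UMIs, 65.9 to 91.1), a ratio of 1.41 (0.914 to 2.27), and in the Ccr7 gate alone 0.661 (0.247 to 1.77) from 10 UMIs in each library. The ratio was 1.12 in monocytes, 1.14 in NK cells, 0.991 in neutrophils, 0.949 in CD4+ T cells and 0.708 (0.432 to 1.12) in B cells, and each of these intervals held 1. In the B cells without Fcer2a or an early gene (Vpreb1, Igll1, Dntt, Rag1 or Rag2), however, it was 0.480 (0.237 to 0.892). These 355 WT and 110 twi cells held 70 and 12 Irf9 UMIs. They were not a planned gate, and theirs was the single Irf9 ratio among the B cell gates with an interval that excluded 1. Many gate ratios were computed, and the intervals are not adjusted for that. The ratio was 0.918 in B cells with an early gene and 1.67 in those with Fcer2a alone, and both intervals held 1. Microglia held 3 Irf9 UMIs in 30 WT cells and 13 in 18 twi cells (28.1 and 110 CPM).

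The partners of Irf9 and the receptors were counted from lists of the pathway. Of a JAK-STAT list (Jak1, Jak2, Tyk2, Stat2 and Stat3), 3 of 5 genes were past 1.5-fold higher in twi CD8+ T cells and 0 lower, beside 22% of all genes. Their intervals were wide, as for Stat2 at 3 and 37 UMIs (ratio 2.73, 0.865 to 13.8). Jak1, with the most UMIs of the list there (162 and 514), went the other way within the fold. Its ratio was 0.702 (0.588 to 0.843) in CD8+ T cells and 0.741 (0.568 to 0.964) in NK cells. In CD4+ T cells 2 of 2 with enough UMIs were higher (Jak1 and Stat3), in monocytes 1 of 2 (Jak1) and in NK cells 0 of 2, whereas in B cells 1 of 4 (Tyk2) and in neutrophils 1 of 2 (Stat3) was lower. Of the receptors, 3 of 4 genes with enough UMIs were past the fold upwards in CD8+ T cells (Ifnar1, Ifnar2 and Ifngr1) beside 22% of all genes, 2 of 3 in CD4+ T cells, 1 of 4 in NK cells, 1 of 5 in B cells and 1 of 5 in monocytes, and 1 of 4 was lower in neutrophils. Ifnar1, a chain of the type I interferon receptor, was at 14.0 CPM in WT and 56.9 CPM in twi monocytes (5 and 22 UMIs, ratio 4.05, 1.5 to 13.7). Of the ligands (Ifng, Ifnb1, Ifna4, Ifnl2 and Ifnl3), 1 had enough UMIs in CD8+ T and 1 in NK cells, and 0 of these were past the fold. Of the 8 inhibitors, 3 were past the fold upwards in CD8+ T cells (Socs1, Usp18 and Irf2bpl) beside 22% of all genes, 2 of 3 in CD4+ T cells, 2 of 4 in NK cells and 1 of 2 in neutrophils, with 2 of 7 higher and 2 lower in B cells and 1 of 3 higher and 1 lower in monocytes. Usp18, which blocks the type I receptor and is also on the target list, had a ratio of 2.91 (1.69 to 5.43) in CD8+ T cells and 3.82 (1.64 to 10.3) in monocytes.

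Irf1, which responds to IFN-gamma, is on the plus strand of chr11:53770014-53778374. Its first RefSeq promoter window, chr11:53769764-53770063, held 1 copy of the palindrome, in capitals, starting at position -90 from the start site, and is shown because Irf1 was, beside Irf7, the member whose interval in CD8+ T cells lay above 1:
Irf1: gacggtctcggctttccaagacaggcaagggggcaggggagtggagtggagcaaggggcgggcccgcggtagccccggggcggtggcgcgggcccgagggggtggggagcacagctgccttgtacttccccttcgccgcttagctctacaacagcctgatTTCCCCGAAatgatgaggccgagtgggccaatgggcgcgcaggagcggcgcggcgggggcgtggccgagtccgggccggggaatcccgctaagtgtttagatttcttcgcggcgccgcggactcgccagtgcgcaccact

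In CD8+ T cells Irf1 was at 59.7 CPM in WT (26 UMIs, 39.0 to 87.5) and 108 CPM in twi (213 UMIs, 94.2 to 124), a ratio of 1.81 (1.20 to 2.84). Over 12 alternative settings this ratio ran from 1.44 to 2.22. Among CD8+ T cells with a Y-linked and no Xist UMI (45 WT and 58 twi cells), Irf1 lay within the fold. A UMI was seen in 19.0% of WT and 38.4% of twi CD8+ T cells, and in 5.14% and 10.9% after thinning. In the Ccr7 gate the ratio was 1.82 (0.779 to 4.72) from 8 and 22 UMIs, close to that of the class. In twi, the Cxcr6 gate was at 1.33-fold the Ccr7 gate (0.84 to 2.21), and cycling cells (at least 2 of Mki67, Top2a, Cdk1, Ccnb2 and Birc5) were at 0.599-fold the others (0.363 to 0.942).

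Elsewhere the intervals of the Irf1 ratio held 1. NK cells had the highest level of all classes in both libraries, 154 CPM in WT (42 UMIs, 111 to 208) and 163 CPM in twi (42 UMIs, 117 to 220), with a ratio of 1.06 (0.675 to 1.67). In twi, NK cells lay above CD8+ T cells, the next of the 8 classes (1.5-fold, 1.05 to 2.1). T cells outside the 8 classes lay between them, at 136 CPM (93 UMIs, 110 to 167). Their interval overlapped that of NK cells. In WT, NK cells were not apart from microglia, the next of the 8 classes there. B cells were at 78.8 CPM in WT and 94.5 CPM in twi (ratio 1.20, 0.815 to 1.74), although among B cells with a Y-linked and no Xist UMI the ratio was 2.25 (1.21 to 4.03). Neutrophils, at 24.7 and 40.8 CPM (17 and 9 UMIs), had a ratio of 1.65 (0.648 to 3.91).

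The list of IRF1 and IFN-gamma targets (Gbp2, Tap1, Psmb8, Psmb9, Psme1, Nlrc5, Cxcl10 and B2m, most of them in antigen processing) had 4 of 8 genes past 1.5-fold higher in twi CD8+ T cells and 0 lower, beside 22% of all genes, with a median log2 ratio of 0.68 where all genes had 0.13. Tap1, a peptide transporter, was at 78.1 CPM in WT and 147 CPM in twi (ratio 1.89, 1.32 to 2.78). In monocytes 3 of 7 were past the fold upwards, in CD4+ T cells 2 of 5, in NK cells 1 of 5, in neutrophils 1 of 5 and in B cells 0 of 6. In CD8+ T cells the sum of this list was 5661 CPM in WT cells with and 5284 CPM in WT cells without an Irf1 UMI (ratio 1.07, 0.977 to 1.17), and 7352 and 7264 CPM in twi (ratio 1.01, 0.979 to 1.05). B2m, the light chain of MHC class I, made up most of that sum, and without it the ratio was 1.17 (0.978 to 1.40) in WT and 1.02 (0.953 to 1.09) in twi. In monocytes the ratio with B2m was 0.836 (0.75 to 0.93) in WT and 0.982 (0.891 to 1.08) in twi. Without B2m it was 1.22 (0.9725 to 1.525) in WT and 1.33 (1.07 to 1.63) in twi monocytes. In NK cells the intervals held 1 in both libraries, with and without B2m. The type I list, in turn, was higher in WT CD8+ T cells with an Irf1 UMI, at 886 against 316 CPM (ratio 2.80, 2.11 to 3.72), and less so in twi (ratio 1.12, 1.04 to 1.22). In twi NK cells that ratio was 2.28 (1.67 to 3.15), and in twi monocytes 1.68 (1.336 to 2.104). In WT the ratio was 0.896 (0.4096 to 1.893) in NK cells and 0.748 (0.4387 to 1.237) in monocytes, and both intervals held 1. Cells with an Irf1 UMI were deeper, with medians of 4444.5 against 3441 UMIs in WT CD8+ T cells and 5088 against 3669 in twi. CPM does not fully remove that difference.

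Irf2, whose protein competes with IRF1, lies on the plus strand of chr8:46739732-46847458. Over all cells Irf2 was at 112 CPM in both libraries (418 and 535 UMIs, ratio 0.9995, 0.878 to 1.14), although as UMIs per cell, with the deeper twi cells, the ratio was 1.35 (1.18 to 1.53). By CPM, monocytes were the exception, with a ratio of 2.09 (1.30 to 3.46). WT monocytes held 26 UMIs (73.0 CPM, 47.7 to 107), twi monocytes 59 UMIs (153 CPM, 116 to 197). Counted as UMIs per cell (0.619 for WT monocytes, 0.908 for twi monocytes), the ratio fell to 1.47, below the 1.5-fold limit. For CD4+ T cells the ratio of CPM was 1.51 (0.761 to 3.17). Among the other classes it ran from 0.848 in NK cells to 1.33 in CD8+ T cells. B cells had the highest level in both libraries, 166 CPM in WT and 196 CPM in twi, but were not apart from the next class in either. The promoter window of Irf2 was the single one of the 11 member windows with the spaced repeat, and it also held 1 palindrome. The palindrome was found in 3 of the 11 windows.

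Irf3, the constitutive member upstream of IFN-beta, on the plus strand of chr7:44997648-45002848, was also even. Over all cells it stood at 57.7 CPM in WT (216 UMIs) and 57.2 CPM in twi (274 UMIs), a ratio of 0.991 (0.826 to 1.19), and as UMIs per cell 1.34 (1.11 to 1.6). The ratio ran from 0.691 (0.336 to 1.38) in NK cells to 1.23 (0.771 to 2.07) in CD8+ T cells among the 4 classes with enough UMIs. Neutrophils were lowest among the compared classes in both libraries, at 14.5 CPM in WT (10 UMIs) and 18.1 CPM in twi (4 UMIs). Of the 12 sensors and adaptors that act upstream of IRF3, IRF5 and IRF7, 8 had enough UMIs in CD8+ T cells, of which 4 were past 1.5-fold higher in twi (Tbk1, Tmem173, Traf3 and Irak4) and 1 lower. The lower one was Ikbke, a kinase of IRF3 and IRF7, at 71.2 CPM in WT and 34.1 CPM in twi (ratio 0.478, 0.308 to 0.758). Among the 4 higher genes, the intervals of Tbk1, Tmem173 and Traf3 held 1. That of Irak4 lay above 1 (4 and 60 UMIs, ratio 3.32, 1.23 to 12.6). In monocytes 2 of 5 were higher (Myd88 and Tlr7) and 1 lower (Tbk1). Myd88 there, the adaptor of most Toll-like receptors, was at 53.4 CPM in WT and 111 CPM in twi (ratio 2.08, 1.19 to 3.79). In NK cells 1 of 2 sensors was past the fold upwards (Myd88), in CD4+ T cells 1 of 1 downwards (Ikbke), in B cells 2 of 7 downwards (Tbk1 and Traf3), and in neutrophils 0 of 1.

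**Figure D4:**
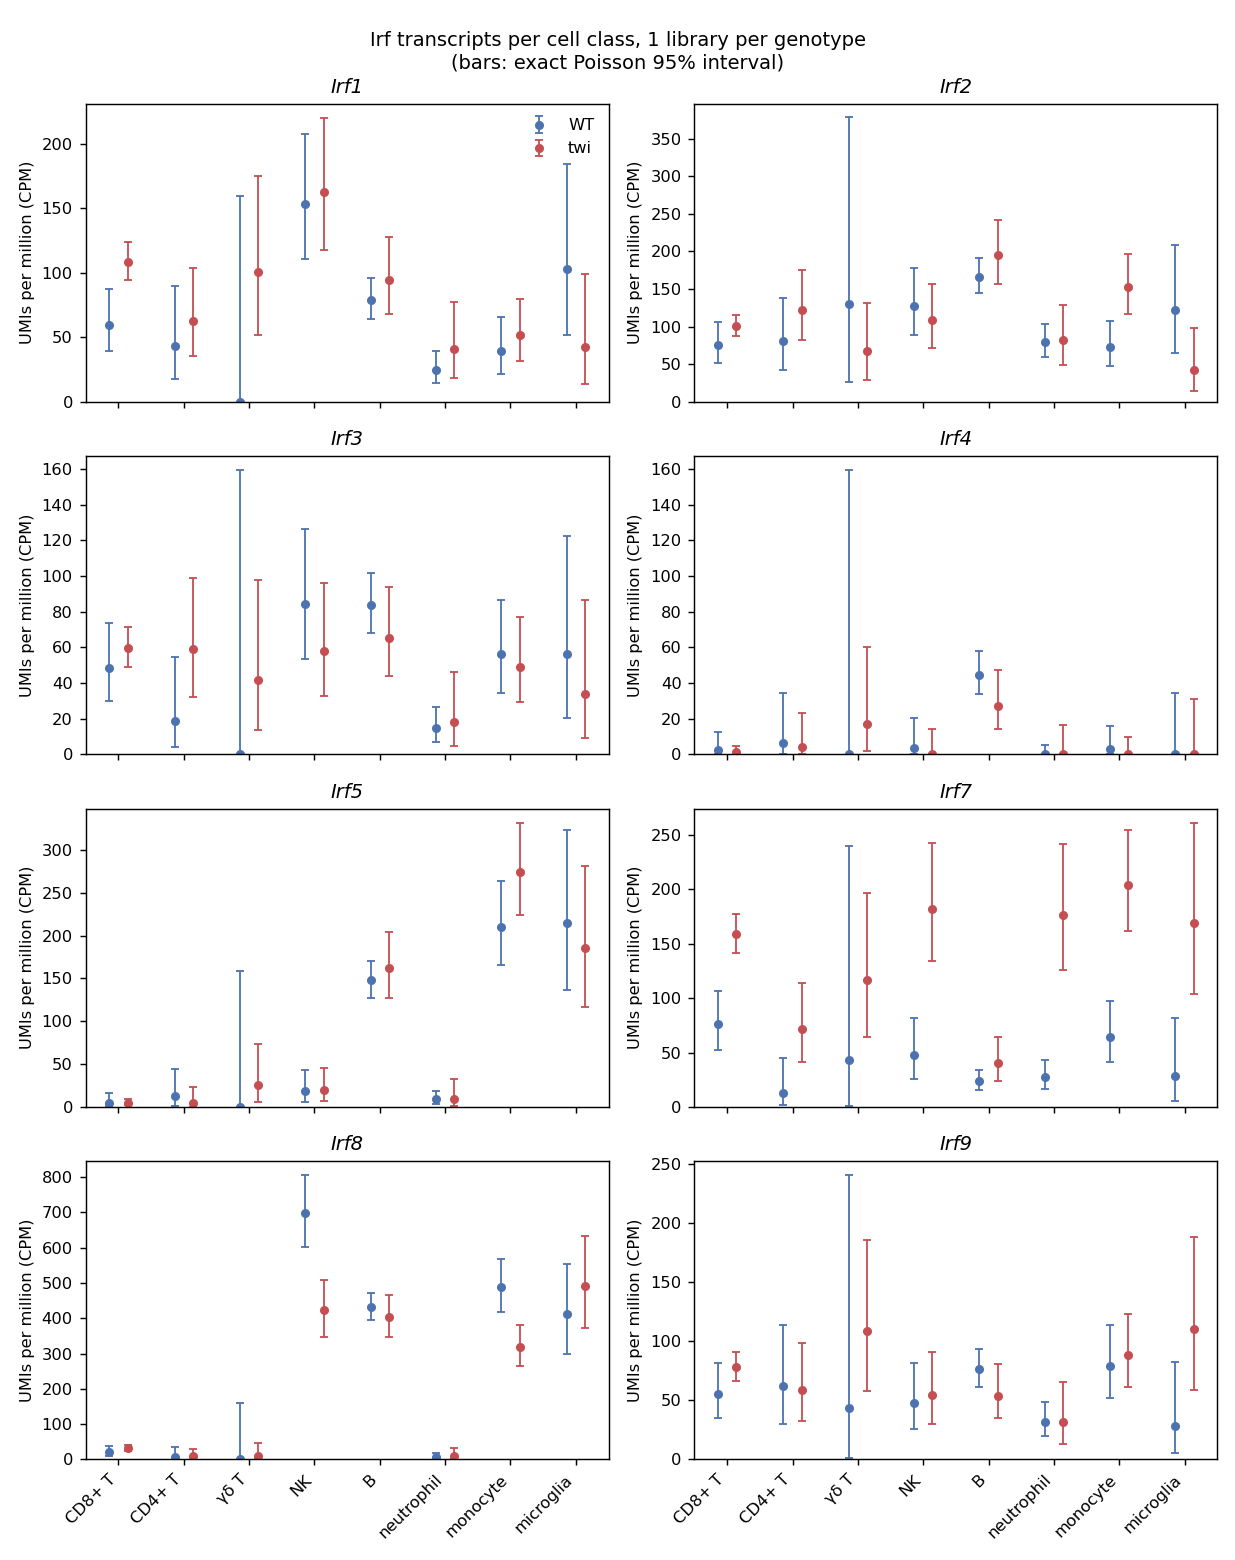
CPM of each member (y axes start at 0 and differ between panels) in 8 cell classes of the WT (blue) and twi (red) libraries, with exact Poisson 95% intervals. Irf4 is highest in B cells, Irf5 stands in B cells, monocytes and microglia, Irf8 in those classes and NK cells, and Irf7 is higher in twi in each class, with the widest intervals in the 8 WT γδ T cells.

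The myeloid and B cell members behaved differently from those above. Irf5, on the plus strand of chr6:29526625-29541871, had 60.7% of its 300 WT UMIs in B cells and 25.0% in monocytes, and 29.9% and 44.0% of its 241 twi UMIs. In monocytes it was at 211 CPM in WT (75 UMIs, 166 to 264) and 274 CPM in twi (106 UMIs, 224 to 332), a ratio of 1.30 (0.960 to 1.77). Counted as UMIs per cell, however, the ratio was 0.913 (0.673 to 1.24), so that its direction turned with the scaling. In B cells it was at 148 CPM (182 UMIs) and 162 CPM (72 UMIs), a ratio of 1.10 (0.823 to 1.45). Microglia were at 215 CPM in WT (23 UMIs) and 186 CPM in twi (22 UMIs). B cells lay 8.08-fold above NK cells, the next class down, in WT (3.40 to 25.2). CD8+ T cells held 2 UMIs in WT and 9 in twi, at 4.59 and 4.58 CPM.

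In cycling B cells Irf5 was lower than in other B cells in both libraries, at 33.9 against 167 CPM in WT (0.203-fold, 0.0735 to 0.451) and 52.5 against 192 CPM in twi (0.273-fold, 0.0859 to 0.670). Cycling cells were 27 of 563 WT and 15 of 172 twi B cells.

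Irf8, on the plus strand of chr8:120736358-120756694, was the member with most UMIs, 1052 in WT and 581 in twi. Its first RefSeq promoter window, chr8:120736108-120736407, held 2 palindromes, in capitals, starting at positions -171 and -153, and is shown as the window with most matches to it among the members:
Irf8: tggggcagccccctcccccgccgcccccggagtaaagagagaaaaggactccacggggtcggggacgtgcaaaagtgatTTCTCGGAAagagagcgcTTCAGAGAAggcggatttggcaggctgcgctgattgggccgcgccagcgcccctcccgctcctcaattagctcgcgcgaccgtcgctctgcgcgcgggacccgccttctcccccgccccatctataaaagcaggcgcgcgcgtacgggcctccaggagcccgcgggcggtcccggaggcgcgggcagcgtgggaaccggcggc

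Among the 8 classes, Irf8 was highest in NK cells, B cells, monocytes and microglia. In WT its level was 699 CPM in NK cells (191 UMIs, 603 to 805), 489 CPM in monocytes (174 UMIs, 419 to 567), 432 CPM in B cells (532 UMIs, 396 to 470) and 412 CPM in microglia (44 UMIs, 299 to 553). CD8+ T cells, the next class, were 19.9-fold below microglia (9.60 to 46.4). A UMI was found in 54.5% of WT B cells (34.5% after thinning to 1000 UMIs) and in 2.17% of WT neutrophils (0.340% after thinning), at median depths of 2003 and 2402.5 UMIs.

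In NK cells Irf8 was lower in twi, at 423 CPM (109 UMIs, 347 to 510), a ratio of 0.605 (0.474 to 0.770). A UMI was found in 72.1% of WT and 63.4% of twi NK cells, and in 44.8% and 32.8% after thinning. In monocytes it was also lower in twi, at 318 CPM (123 UMIs, 264 to 380), a ratio of 0.651 (0.513 to 0.825). The monocyte value was carried by few cells, since the 3 cells with most UMIs held 47.1% of the WT UMIs (31, 27 and 24) and 43.1% of the twi UMIs (35, 11 and 7). Without the cell with most UMIs in each library the ratio was 0.521 (0.395 to 0.684). Monocytes also differed in depth, with medians of 6179.5 and 5193 UMIs, and counted as UMIs per cell the ratio was 0.457 (0.360 to 0.579).

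In B cells Irf8 was at 432 CPM in WT and 403 CPM in twi, a ratio of 0.933 (0.783 to 1.11), which turned to 1.1 (0.925 to 1.31) as UMIs per cell. Its level differed more between an early and a mature gate of B cells than between the libraries within either gate. The early gate (any of Vpreb1, Igll1, Dntt, Rag1 and Rag2, which build and test the antigen receptor) was at 242 CPM in WT and 237 CPM in twi, and the mature gate (Fcer2a without the early genes) at 439 and 428 CPM. The early gate was 0.551-fold the mature gate in WT (0.388 to 0.792) and 0.553-fold in twi (0.316 to 0.95). Most B cells were in neither gate, 355 in WT (63.06%) and 110 in twi (63.95%). These had the highest Irf8 level, 537 and 457 CPM, with a twi over WT ratio of 0.85 (0.686 to 1.05). Cycling B cells were at 0.368-fold the others in WT (0.248 to 0.530) and at 0.487-fold in twi (0.293 to 0.770).

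CD8+ T cells held 9 Irf8 UMIs in WT (20.7 CPM, 9.45 to 39.2) and 63 in twi (32.0 CPM, 24.6 to 41.0), a ratio of 1.55 (0.767 to 3.55). Of the 63 twi UMIs, 43 lay in the 106 cells that also carried at least 2 genes of a second marker panel, and without such cells the ratio was 0.929 (0.360 to 2.83). In the twi library cycling CD8+ T cells were at 65.9 CPM (20 UMIs in 34 cells), 2.55-fold the others (1.42 to 4.43), with all 20 UMIs in 5 cells.

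Irf4, which acts in B cell development, plasma cells and activated T cells, lies on the plus strand of chr13:30749226-30766976 and was the rarest member, with 63 UMIs in WT and 20 in twi. Of these, 55 (87.3%) lay in B cells in WT and 12 (60.0%) in twi. The level in B cells was 44.7 CPM in WT (33.6 to 58.1) and 27.0 CPM in twi (14.0 to 47.2), a ratio of 0.605 (0.295 to 1.14) with an interval that held 1. Among B cells with a Y-linked and no Xist UMI the direction turned, at a ratio of 2.05 (0.778 to 4.91). In WT the early gate held 35 of the 55 UMIs in 151 cells, at 87.2 CPM (60.8 to 121), and the mature gate 1 UMI in 57 cells, a ratio of 9.95 (1.67 to 404). In twi the early gate held 4 UMIs in 25 cells and the mature gate 1 UMI in 37 cells. The B cells in neither gate held 19 UMIs in 355 WT cells and 7 UMIs in 110 twi cells. Their levels were 26.5 and 27.3 CPM, a ratio of 1.03 (0.366 to 2.56). The early gate made up 26.8% of WT and 14.5% of twi B cells, and its part in the difference of Irf4 between the libraries was not tested. From a longer list of plasma cell genes, Sdc1 was detected in 4.62% of WT and 1.74% of twi B cells and Prdm1 in 3.02% and 0.581%. The rest of that list is not given, and a difference in plasma cells was not tested. In twi, γδ T cells held 2 Irf4 UMIs (16.7 CPM) and were not apart from B cells. Neutrophils and microglia held 0 Irf4 UMIs in both libraries, which in WT neutrophils allows up to 4.36 CPM.

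Of the 8 binding partners of IRF4 and IRF8 (Spi1, Spib, Batf, Batf3, Ikzf1, Ikzf3, Tcf3 and Etv6), 1 was past 1.5-fold higher in twi, Ikzf3 in CD8+ T cells, at 36.7 and 99.1 CPM (ratio 2.70, 1.62 to 4.81). Downwards, 1 of 4 was past the fold in NK cells (Tcf3, 121 and 77.6 CPM, ratio 0.642, 0.349 to 1.15), and 1 of 2 in neutrophils (Ikzf1), with 0 of 5 in B cells, 0 of 5 in monocytes and 0 of 4 in CD4+ T cells.

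The levels over all filtered cells mixed these levels with the makeup of the libraries, which differed. For Irf7, twi cells held 5.59 times the UMIs per cell of WT cells. With the class numbers of twi and the UMIs per cell of each class in WT, this factor was 1.75, and twi lay 3.20-fold above that. For Irf8 the measured factor was 0.582 and that of the class numbers alone 0.828. For Irf4 the factors were 0.334 and 0.547, for Irf5 0.846 and 0.743, and for Irf1 2.08 and 1.17. Fewer cells of a class and less RNA per cell were told apart only as far as the marker classes separate cells. The factors are in UMIs per cell, so that the measured ones also hold differences in depth within classes. Median depth was, for example, 3706 UMIs in WT and 4106.5 in twi CD8+ T cells. Depth was not held apart from level here.

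**Figure D5:**
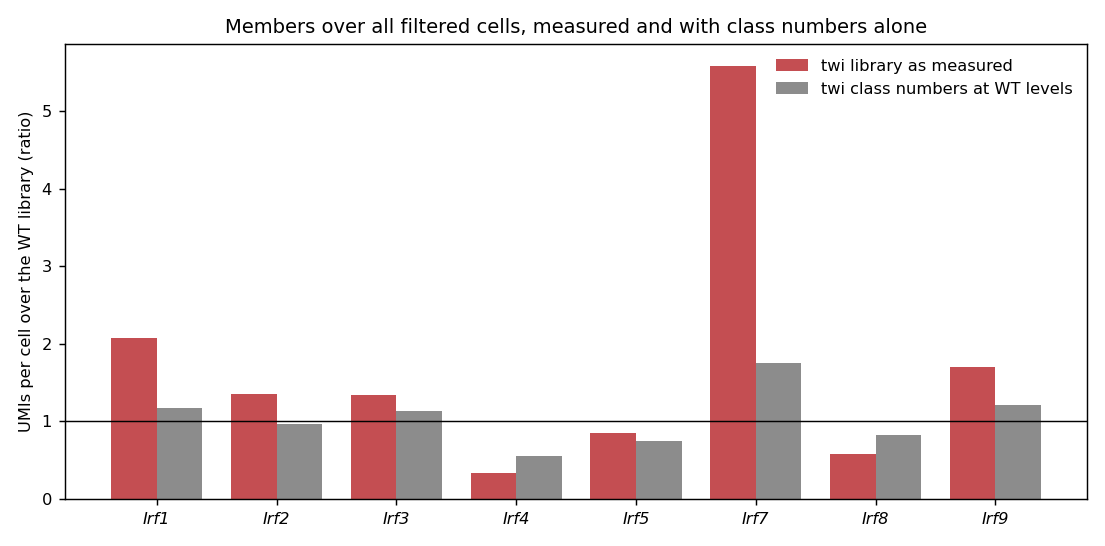
UMIs per cell of each member relative to the WT library (y axis, a ratio that starts at 0, with a line at 1), for the twi library as measured (red) and for the twi class numbers at WT levels (grey). The red bar for Irf7 stands at 5.59 and its grey bar at 1.75, and for Irf5 the grey bar (0.743) lies below the red one (0.846).

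The pattern of each member over the 12 sums of 6 classes in each of the 2 libraries was compared with that of 4975 genes with at least 200 UMIs, as a description over points that share libraries. The top r among so many genes over 12 points is high partly by selection, and no chance level was computed. Irf4, under that limit of UMIs, was left out. Irf7 was most like Usp18 (Pearson's r 0.85), a target of the same pathway, then Gpr65 and Sppl2a (both 0.78). Irf8 was most like Lat2 (0.98), an adaptor of B and myeloid cells, then Tmed4 and Orai3 (both 0.95). Irf5 was most like Ly86 (0.99), H2-DMb1 (0.98) and Pld4 (0.97). Irf1 was most like Ggct (0.96), H2-D1 and Car2 (both 0.93), Irf2 like Ing4 (0.92), Irf3 like Mrpl36 (0.96) and Irf9 like Slc35c1 (0.90). Among members, Irf1 and Irf3 (0.74), Irf5 and Irf8 (0.74) and Irf3 and Irf8 (0.74) were the most alike pairs, and r of Irf7 with the other members lay between -0.04 and 0.25.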

How the data were processed

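CD45+ brain cells of 1 pooled WT and 1 pooled twi library were analysed. The authors deposited UMI counts per gene and cell barcode, not normalized, made with Cell Ranger 2.1.1 and build mm10 per the submitters' processing notes, and the methods name STAR. The labels give collagenase and dispase as the digestion, the methods collagenase D after perfusion and removal of the meninges, and the labels' library text speaks of CD4+ cells, whereas both libraries held many other leukocytes.

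The members, gene lists and classes were chosen with earlier results of these data known. Barcodes with at most 15% mitochondrial UMIs were kept. A cell took the class of the marker panel with most detected genes, at least 2. After the marker UMIs were seen, the neutrophil panel was limited to cells with at least 1% of UMIs from S100a8 and S100a9, γδ T cells were marked by at least 2 of 8 genes of IL-17-type cells in place of Trdc, and mature B cells by Fcer2a alone. The Ccr7 gate, the cells outside both CD8+ T cell gates and the list without B2m were chosen after the data were seen. The B cells in neither gate were not planned as a set either. Some planned genes, and a gate that used one, are not reported here. No doublet caller was run. Members, their pathway genes past 1.5-fold and the 3 genes most like each member (log2 of CPM plus 10) are named. Intervals are exact Poisson for levels and conditional binomial for ratios (scipy 1.17.1, Python 3.11.15), and sets at 0 use a limit of 3 counts. The ratio intervals, the fold rule and the thinning were tried on simulated data. The sums were Poisson draws for CD8+ T cells with 3-fold changes. UMIs gathered in few cells and smaller changes were not simulated. Shares are also given for cells thinned to 1000 UMIs, which leaves out shallower cells (1 to 48 per class and library where any). Promoters are from RefSeq (GRCm38.p6) and positions from GENCODE M21, the same build as mm10.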

Additional observations from a re-analysis of the deposited data

Results flagged for a closer look

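Among barcodes that no marker panel claimed, 2 WT cells with at least 3 Irf8 UMIs each held 49 Irf8 UMIs, together with 243 UMIs of Mpo, 78 of Elane, 15 of Cd34 and 6 each of Kit and Flt3, genes of granulocyte and monocyte progenitors. Elane was detected in 1 of the 2. The same cells held 12 UMIs of Bst2, 8 of Tcf4, 5 of Cox6a2 and 3 of Runx2, genes also used to mark plasmacytoid dendritic cells, and 0 of Siglech, Ly6d and Cd209a. In twi, 6 such cells held 24 Irf8 UMIs and 0 UMIs of Mpo, Elane, Cd34, Kit and Flt3. These values were listed because they come from cells outside the comparisons above.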

How the results depend on the processing

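No paired analysis was possible because each genotype had 1 pooled library. Over 489 recomputed ratios of 42 results, 463 stayed within the 95% interval of the value reported, 26 left it and 0 of those whose interval excluded 1 turned direction. Irf7 in CD8+ T cells gave 1.40 among cells with a Y-linked and no Xist UMI. Irf7 in neutrophils gave 2.51 with classes by marker UMIs without S100a8 and S100a9. Over all cells Irf7 gave 5.59 as UMIs per cell, 3.23 among cells with a Y-linked and no Xist UMI and 1.75 for class numbers alone. Under each setting all pairs with enough UMIs were counted anew. The count of pairs higher in twi, 10 above, was 5 at a fold of 2. Among cells with a Y-linked and no Xist UMI it was 2, where 12 of the 34 pairs could be compared. Those 2 were Irf1 and Irf4 in B cells, and neither was among the 10. Over all B cells Irf1 lay within the fold and Irf4 was past it downwards. The count of lower pairs, 3 above, was 0 at a fold of 2. It was also 0 among the cells with a Y-linked and no Xist UMI. There, Irf8 in NK cells and monocytes could not be compared (18 and 15 such cells in twi), so that this 0 does not cover them. The count of lower pairs was 6 at a lower fold limit, and 5 without cells of a second panel or without the top cell of each library (chosen after seeing the data). The cause was not tested. The class rule as first written, without the limit on S100a8 and S100a9, put 59 rather than 105 WT cells among CD8+ T cells and 319 rather than 230 among neutrophils, and gave 9 higher and 4 lower pairs. Thinning to 1000 or 500 UMIs left all 68 recomputed ratios of shares within their intervals. Few UMIs of Irf4 outside B cells, and the 8 WT γδ T cells, limited what could be compared there.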
